A study of Homo sapiens with 18 samples.

Results

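The tubulin genes were followed as a family in RNA of HEK293 cells, a human embryonic kidney line. Members were taken by name from a list of 10 genes, by a rule that uses no measured value. They are 10 of 63568 gene entries: the α-tubulin genes TUBA1A, TUBA1B and TUBA1C, the β-tubulin genes TUBB, TUBB2A, TUBB2B, TUBB3, TUBB4B and TUBB6, and the γ-tubulin gene TUBG1. All 10 had an entry and passed the filter on low mature values, and 9 passed it for unspliced transcripts.

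α- and β-tubulin pair into the dimers from which microtubules are built, and γ-tubulin sits in the ring complex that starts new microtubules. Cells adjust α- and β-tubulin mRNA to the amount of free dimer. When dimers are in excess, TTC5 binds the first residues of α- and β-tubulin as they leave the ribosome and, through SCAPER, brings the CCR4-NOT deadenylase to the mRNA, which then decays while it is being translated. The recognised start is methionine, arginine and glutamate, followed by cysteine in α-tubulin and by isoleucine in β-tubulin. TUBG1 mRNA is not under this control. The labels name no treatment that changes the dimer pool.

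The start of each coding sequence is shown because it encodes the residues that TTC5 reads. The first 30 coding bases are from GENCODE release 29 (GRCh38), with the first 4 codons in capitals.
TUBA1A: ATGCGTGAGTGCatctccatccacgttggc
TUBA1B: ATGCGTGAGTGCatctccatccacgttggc
TUBA1C: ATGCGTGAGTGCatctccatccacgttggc
TUBB: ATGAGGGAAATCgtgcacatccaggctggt
TUBB2A: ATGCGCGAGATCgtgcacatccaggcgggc
TUBB2B: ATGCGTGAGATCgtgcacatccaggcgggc
TUBB3: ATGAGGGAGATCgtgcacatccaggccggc
TUBB4B: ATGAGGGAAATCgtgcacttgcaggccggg
TUBB6: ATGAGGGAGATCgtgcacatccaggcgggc
TUBG1: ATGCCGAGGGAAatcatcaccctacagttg

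The 3 α-tubulin genes were identical over these 30 bases. In TUBG1, codon 2 was CCG, and its codons 3 to 5 (AGG, GAA, ATC) equalled codons 2 to 4 of TUBB and TUBB4B, so the β-like stretch began 1 codon later. The exon that holds the start codon carried only 3 coding bases in the α-tubulin genes, against 57 in the β-tubulin genes and 49 in TUBG1. Over whole coding sequences, TUBA1A and TUBA1B were 97.2% identical and TUBB2A and TUBB2B 98.2%. TUBG1 reached at most 54.8% identity with any other member.

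In GRCh38, the 3 α-tubulin genes lie close together on chromosome 12. TUBA1A is at chr12:49184796-49189324 (minus strand), TUBA1B at chr12:49127782-49131397 (minus) and TUBA1C at chr12:49188736-49274603 (plus). TUBB2A at chr6:3153669-3157526 (minus) and TUBB2B at chr6:3224261-3231730 (minus) are near each other, and TUBB is at chr6:30720201-30725426 (plus). TUBB3 is at chr16:89921392-89938761 (plus), TUBB4B at chr9:137241213-137243707 (plus), TUBB6 at chr18:12307669-12344320 (plus) and TUBG1 at chr17:42609676-42615234 (plus). The transcript models of the α- and β-tubulin genes had 4 exons each, and that of TUBG1 had 11.

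Cells received 500 µM 4-thiouridine, a uridine analogue built into RNA made after it is added, and the labelled RNA was biotinylated and captured on streptavidin. Labelled RNA was sequenced after 7.5, 15, 30, 45 and 60 min, in 3 libraries (A, B and C) per time. There were also 3 libraries of total RNA, 1 selected for poly(A), 1 cleared of ribosomal RNA with RNase H and 1 cleared with Ribo-Zero, so the spread of the total group includes the selection method. All titles carry the same replicate tag, and the labels do not say whether the libraries of a time come from separate cultures. The p-values below measure only the spread between libraries, which may be technical. In bulk RNA, fewer cells of a kind and less RNA per cell cannot be told apart.

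Levels are the authors' TPM, transcripts per 1000000 transcripts, which correct for length and carry no read depth. A TPM is a share of a library, and labelled RNA changes as a whole with time: unspliced transcripts held 22.3% to 23.8% of TPM at 7.5 min and 7.19% to 11.03% at 60 min. Mature levels above 0 were listed for 15159 to 20407 entries in the labelled libraries, the lowest in 45 min library B. Of 7 HEK293 markers, 6 had an entry, and the intermediate filament genes VIM, KRT8, KRT18 and INA were above 0 in all 18 libraries. The sum over the 6 was 302 to 499 TPM in labelled RNA, most of it from VIM (mean 289 TPM). PAX2 was low, with a mean of 5.64 TPM in labelled and 0.927 TPM in total RNA, and at 0 in 1 library. The neurofilament gene NEFM had a mean of 0.459 TPM in labelled RNA and was at 0 in 3 libraries. The 15 markers of other cell types summed to 5.11 to 50.4 TPM, and CD3E, HBB and COL1A2 were at 0 in all 18. RBFOX3 (mean 5.45 TPM in labelled RNA) and COL1A1 (2.25 TPM) were above 0 in all 18, SNAP25 was at 0 in 1, and HBA1 had a mean of 10.8 TPM in total RNA.

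Reads cannot always be assigned to 1 tubulin gene. Of all 50-base windows along the GENCODE 29 transcripts, 62.7% of TUBA1B, 41.7% of TUBA1A and 25.1% of TUBA1C occur in another gene, mainly in one another. TUBB2A shared 65.5% and TUBB2B 52.2%, mainly with each other, and TUBB3 shared 89.4% with the overlapping entry AC092143.1. TUBB6 shared 1.0%, TUBB4B 9.9%, TUBB 18.2%, and TUBG1 29.9%, mainly with its close copy TUBG2. Single levels of TUBA1A, TUBA1B, TUBA1C, TUBB, TUBB2A, TUBB2B, TUBB3 and TUBG1 therefore depend on how the authors' software split shared reads.

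TUBB has a further limit. The deposited table held 4 unnamed entries whose primary values equalled those of TUBB in all 18 libraries within 0.01 TPM. Their mature values, the same for all 4, were close to that of TUBB in some libraries (83.2 TPM beside 83.1 TPM in 7.5 min library A) and not in others (109 TPM beside 78.8 TPM in 30 min library A). TUBB alone stood at 83.1, 63.1 and 68.8 TPM in the 7.5 min libraries, and the sum over the 5 entries at 416, 315 and 345 TPM. The TUBB level printed below is that of its own entry, which is a part of the sum. What the 4 entries are was not tested.

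TUBA1B was the main tubulin mRNA in every library. At 7.5 min its mature level in libraries A, B and C was 1072, 763 and 827 TPM, and after 15 min it was 911, 743 and 578 TPM. The 30 min libraries held 875, 725 and 641 TPM. The level was 1094, 798 and 783 TPM after 45 min, and the 60 min libraries held 1210, 891 and 811 TPM. Library A was the highest at each of the 5 times, and the times overlapped. TUBA1B made up 71.4% to 74.9% of the summed α-tubulin TPM at 7.5 min and 73.6% to 77.1% at 60 min.

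TUBA1C came next among the α-tubulin genes, with 269 ± 82.0 TPM (SD, n = 3) after 7.5 min of labelling and 275 ± 74.0 TPM (SD, n = 3) in the 60 min libraries. TUBA1A, the α-tubulin best known from developing neurons, was at 52.9 ± 12.8 TPM and 49.8 ± 20.4 TPM (SD, n = 3 each) at those times. Library A was again the highest at all 5 times for both genes. The same held for TUBB, TUBB2A and TUBB2B. For TUBB4B and TUBG1 library A was the highest at 4 of the 5 times, for TUBB6 at 3 and for TUBB3 at 0. At a single time, library A was the highest in 22.4% to 34.7% of all genes with a mean of at least 10 TPM. The share of genes with library A highest at all 5 times was not counted.

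Counted by single entries, TUBB4B was the highest β-tubulin gene at each of the 5 times and in total RNA, and made up 59.6% ± 2.27 (SD, n = 3) of the β-tubulin TPM at 7.5 min and 63.7% ± 1.63 (SD, n = 3) at 60 min. The order turns with the sum over TUBB and its 4 equal entries, whose mean was above that of TUBB4B in all 6 groups (359 against 291 TPM at 7.5 min, 557 against 440 TPM at 60 min). TUBB2A, TUBB2B and TUBB6 lay between 23.1 and 58.5 TPM as group means of labelled RNA. TUBB3, a β-tubulin used as a marker of neurons, was the lowest member throughout, between 2.93 and 10.9 TPM in the labelled libraries.

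In order of mean level at 60 min, the genes were TUBA1B, TUBB4B, TUBA1C, TUBB, TUBG1, TUBB6, TUBA1A, TUBB2B, TUBB2A and TUBB3. From TUBG1 down to TUBB2A, neighbours in this order overlapped between libraries, so their order is not resolved. TUBA1B, TUBB4B, TUBA1C, TUBB and TUBB3 each stood apart from their neighbours at 60 min. At 7.5 min, TUBG1 at 94.6 ± 8.59 TPM (SD, n = 3) stood apart above TUBB at 71.6 ± 10.3 TPM (SD, n = 3), and at 30, 45 and 60 min it stood apart below TUBB. This crossing, like the place of TUBB in the order, holds only for the own entry of TUBB: the sum over its equal entries was above TUBG1 in every library.

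**Figure D1:**
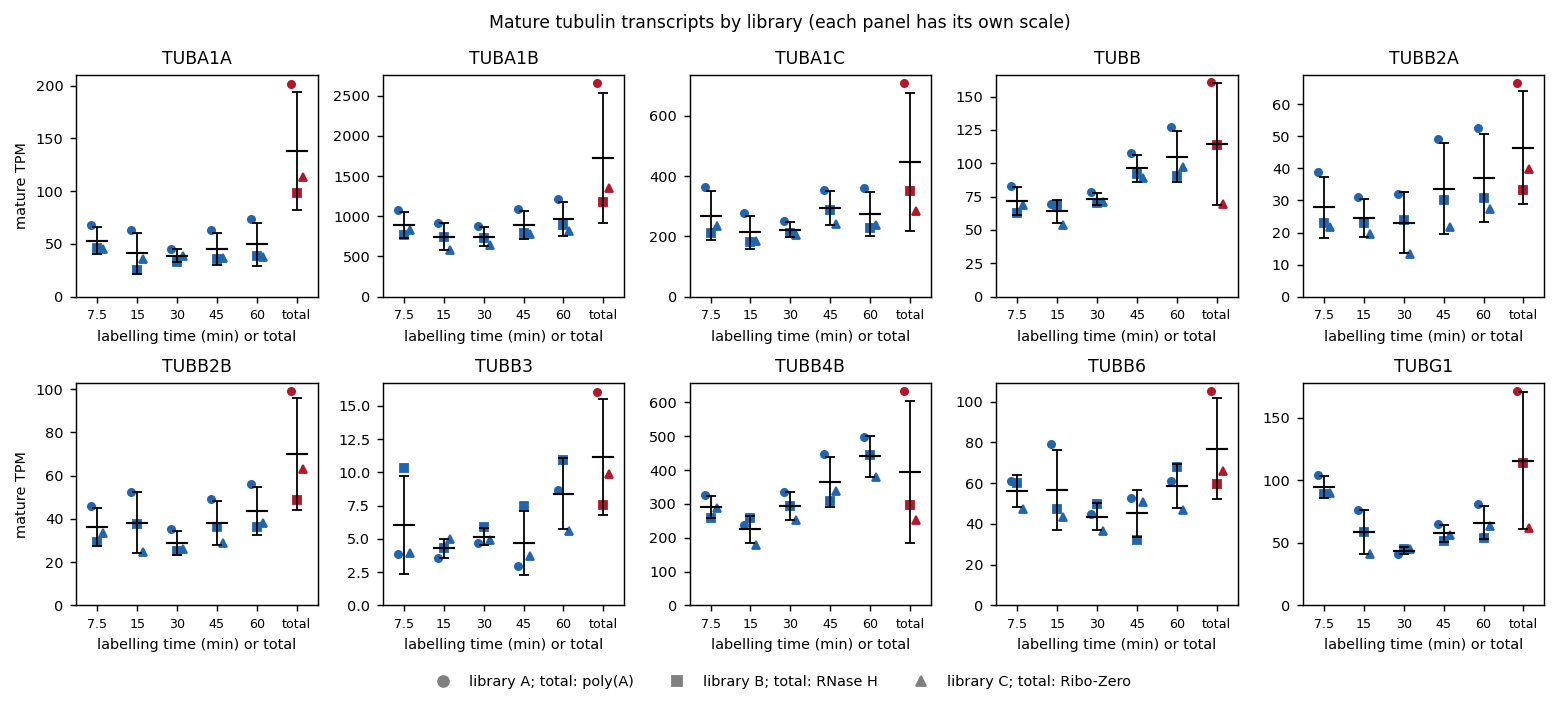
Mature level in TPM (y axis, from 0, each panel with its own scale) of the 10 tubulin genes by labelling time in min and in total RNA (x axis). Points are single libraries, the horizontal line is the mean and the bar is ± SD (n = 3). TUBG1 has a mean of 94.6 TPM after 7.5 min and of 43.8 TPM after 30 min, with no overlap between libraries, and the poly(A) library is the highest of the total libraries in all 10 panels.

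The γ-tubulin gene TUBG1 had the largest change of the members from 7.5 to 30 min. At 7.5 min its mature level in libraries A, B and C was 104, 89.0 and 90.3 TPM. After 15 min it was 76.6, 58.5 and 41.2 TPM, and the 30 min libraries held 40.8, 45.4 and 45.1 TPM. The later libraries held 64.7, 51.9 and 56.0 TPM (45 min) and 81.0, 54.3 and 63.6 TPM (60 min). Every library at 15 min or later was below every library at 7.5 min, and the lowest mean was at 30 min.

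At 30 against 7.5 min, TUBG1 was lower by limma, with a log2 change of -1.09 (SE 0.22, adjusted p = 0.00619). It was the only member called in that comparison, where 8.54% of all 16739 genes tested were called, 5.7% higher and 2.84% lower. The other 9 members had log2 changes between -0.42 (TUBA1A) and 0.04 (TUBB). The median was -0.27 over the members and 0.16 over all genes. TUBG1 stayed lower, with adjusted p from 0.00117 to 0.0274, in all 14 alternatives, including each left-out library.

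At 45 min TUBG1 was lower by 0.71 on the log2 scale (log2 change -0.71, SE 0.22, adjusted p = 0.0402 by limma), the only member called among 17.1% of all genes (12.3% higher, 4.77% lower). This call was lost without the filter on low values (adjusted p = 0.0561) and in a fit of the 2 groups alone (0.0806). It was also lost without 7.5 min library A, B or C (adjusted p = 0.120, 0.0728 and 0.0836) and without 45 min library B or C (0.108 and 0.0885). At 15 min no member was called by limma, as for nearly all genes (0.0478% called, 0.0418% higher and 0.00597% lower), and TUBG1, with a log2 change of -0.72 (SE 0.22, adjusted p = 0.260), was the 1 member with an unadjusted p under 0.05. At 60 min the log2 change of TUBG1 was -0.52 (SE 0.22, adjusted p = 0.119 by limma), which did not pass, although no 60 min library reached the lowest 7.5 min library.

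Set against its dimer-forming relatives in the same library, TUBG1 equalled 5.07% to 6.07% of the summed α- and β-tubulin TPM at 7.5 min and 2.39% to 3.50% at 30 min. This sum takes TUBB as its own entry, and with its equal entries added each share would be lower. The share was 2.95% to 3.79% at 60 min and 2.76% to 5.23% in total RNA. The 7.5 min libraries did not overlap those of 30 or 60 min. This share does not depend on how libraries are scaled to each other. The difference between TUBG1 and the other members was not itself tested.

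TUBG2, the other γ-tubulin gene and the one that shares sequence with TUBG1, was at 7.68, 8.28 and 7.47 TPM in the 7.5 min libraries and at 11.5, 19.4 and 10.2 TPM in those of 30 min. Its log2 change was 0.69 at 30 min (adjusted p = 0.180 by limma) and 0.84 at 60 min (adjusted p = 0.0534), so neither passed. Its highest labelled level at 7.5 or 30 min was below the lowest level of TUBG1. The part of reads shared between the copies in these values was not tested.

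From 7.5 to 60 min, TUBB4B was the only member called higher. Its mature level was 325, 259 and 289 TPM at 7.5 min and 497, 444 and 379 TPM at 60 min, so the groups did not overlap. The log2 change was 0.59 (SE 0.20, adjusted p = 0.0448 by limma). Over all genes 20.1% were called, 15.8% higher and 4.21% lower, and the median log2 change was 0.24. The call sat at the threshold. It was lost without the filter on low values (adjusted p = 0.0795), with quantile normalization (0.0573) and with TPM taken over mature transcripts alone (log2 change 0.35, adjusted p = 0.233). It was also lost without 7.5 min library A, B or C (adjusted p = 0.0505, 0.140 and 0.104) and without 60 min library A or B (0.163 and 0.113).

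TUBB, the commonly expressed β-tubulin, was at 127, 90.8 and 97.2 TPM in the 60 min libraries, again without overlap with the 7.5 min libraries. Its log2 change was 0.54 (SE 0.19, adjusted p = 0.0546 by limma), and it passed with a pseudocount of 0.1 (0.0481), with a filter at 5 TPM (0.0442) and without 7.5 min library A (0.0437). The sum over TUBB and its 4 twin entries went from 359 ± 51.7 TPM to 557 ± 65.0 TPM (SD, n = 3 each), with a log2 change of 0.64 (adjusted p = 0.0206 by limma) in a fit added after the values were seen. The level of TUBB followed that of TUBB4B across the 15 labelled libraries (Pearson r = 0.93, the highest of the 45 member pairs), a description over libraries that share times and library letters.

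The other 7 α- and β-tubulin genes had log2 changes from -0.13 (TUBA1A) to 0.49 (TUBB3) at 60 min, and none passed. The median over the 10 members was 0.19. Scaling bears on these small changes. With median-ratio scaling, the median of all genes moved from 0.24 to -0.05, the calls over all genes from 2653 higher and 705 lower to 1296 higher and 1307 lower, TUBB4B to 0.24 (adjusted p = 0.564 by limma) and TUBG1 to -0.86 (adjusted p = 0.0340, then called lower). Relative to the median of all genes, TUBG1 was thus below it and TUBB4B above it under both scalings.

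**Figure D2:**
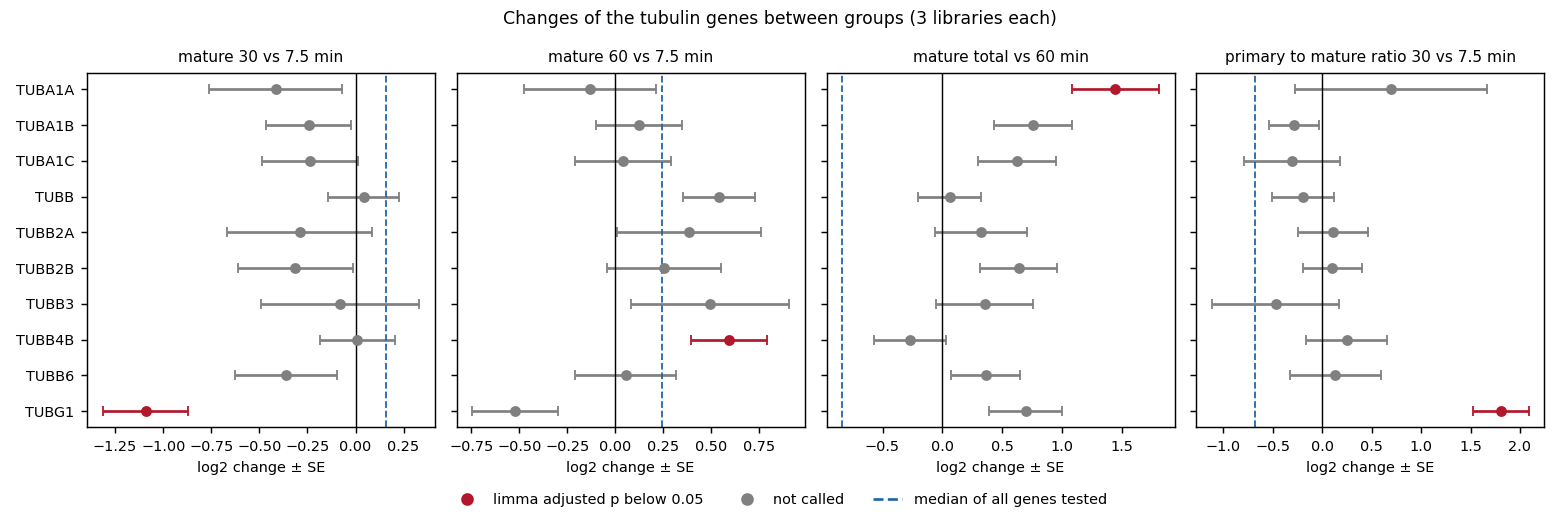
Log2 change ± SE (x axis) of the 10 tubulin genes (rows) in 4 comparisons of 3 against 3 libraries. Red points have a limma adjusted p below 0.05, and the dashed line is the median of all genes tested. TUBG1 is called lower at 30 min (-1.09) and its primary to mature ratio is called higher (1.81), while TUBB4B (0.59 at 60 min) and TUBA1A (1.45 in total RNA) are the other red points.

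Total RNA shows what has accumulated, and was compared with RNA made within 60 min. TUBA1A was the 1 member called higher. It stood at 202 TPM in the poly(A), 97.8 TPM in the RNase H and 113 TPM in the Ribo-Zero library, all above the 73.4, 38.9 and 37.2 TPM of the 60 min libraries. The log2 change was 1.45 (SE 0.36, adjusted p = 0.00340 by limma), and it passed in all 13 alternatives. Of all 16580 genes tested, 45.4% were called, 5.24% higher (the direction of TUBA1A) and 40.1% lower in total RNA, each as a share of the genes tested.

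The remaining α-tubulin genes were also higher in mean, without passing. TUBA1B was at 2658, 1176 and 1353 TPM in the poly(A), RNase H and Ribo-Zero libraries (log2 change 0.76, SE 0.33, adjusted p = 0.0655 by limma) and TUBA1C at 710, 350 and 285 TPM (log2 change 0.62, adjusted p = 0.128). Among the β-tubulin genes the log2 change ran from -0.27 (TUBB4B) to 0.64 (TUBB2B). TUBG1 was at 171, 114 and 62.1 TPM (log2 change 0.70, adjusted p = 0.0700). The median over the 10 members was 0.49, against -0.84 over all genes.

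Which members pass depends on the scaling, since most genes were lower in total RNA. With median-ratio scaling, which brings the median of all genes to -0.06 and the calls from 869 higher and 6653 lower to 2856 higher and 2517 lower, all 10 members were called higher. With quantile normalization 4 were, beside 2276 of all genes higher and 2511 lower. The poly(A) library was the highest of the total libraries for all 10 members, by 1.42 to 2.26 times over RNase H and 1.57 to 2.76 times over Ribo-Zero. Over all genes with a mean of at least 10 TPM the median ratios were 1.47 and 1.79. Without the poly(A) library TUBA1A still passed (log2 change 1.14, adjusted p = 0.0207 by limma), and TUBB4B was called lower (-0.68, adjusted p = 0.0274). Without the Ribo-Zero library, TUBA1B (0.89, adjusted p = 0.0402), TUBA1C (0.89, 0.0419) and TUBG1 (1.08, 0.00428) were called higher too, and without the RNase H library TUBA1B was (0.99, 0.0329).

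The authors' copies per cell, scaled with spiked-in RNA, ranked TUBA1B above 99.89% or more of the entries in each total library. TUBA1B was at 185, 440 and 364 copies in the poly(A), RNase H and Ribo-Zero library, and TUBB4B at 48.9, 115 and 63.1 copies. TUBG1 was at 14.5, 45.2 and 14.7 copies. TUBB3 was the lowest, at 1.61, 3.20 and 2.18 copies. The 9 α- and β-tubulin genes summed to 345, 834 and 585 copies, with TUBB as its own entry. The copy numbers were highest in the RNase H library for all 10 members, unlike TPM, so their order among the libraries is not that of TPM. The share of all entries with this order was not counted, so it is not read as a trait of the tubulin genes.

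Unspliced RNA was followed beside mature RNA, and what it says about the speed of maturation was not tested. The deposited tables give a primary transcript per gene, the unspliced RNA of the whole locus, and its share of primary plus mature TPM is called the unspliced share here. It does not depend on the scaling between libraries. For TUBA1B it was 13.3%, 8.10% and 9.21% in the 7.5 min libraries, 12.3%, 12.1% and 12.1% in those of 15 min, and 3.52%, 3.45% and 3.65% in those of 60 min. The 60 min libraries lay below all others at 7.5, 15 and 30 min.

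By the primary to mature ratio, 7 members were lower at 60 than at 7.5 min by limma: TUBA1B, TUBA1C, TUBB, TUBB2A, TUBB2B, TUBB3 and TUBB6, with log2 changes from -2.45 (TUBB3) to -1.16 (TUBB6). The value of TUBB3 rests on primary levels of 0.18, 0 and 0.17 TPM at 60 min, close to the pseudocount of 0.1. Such a fall was usual, as 63.9% of 13879 genes were called, 62.8% lower and 1.09% higher, with a median of -1.81. TUBA1A (-1.36, adjusted p = 0.235) and TUBB4B (-0.95, adjusted p = 0.0602) fell short of the threshold, and TUBB4B passed without 7.5 min library B (adjusted p = 0.0384). The call of TUBB6 was lost without 7.5 min library A, B or C and without 60 min library A or B (adjusted p = 0.0617, 0.0798, 0.117, 0.182 and 0.0885), and that of TUBA1C without 60 min library A (0.0665).

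The unspliced share of TUBG1 was highest at 30 min. It was 14.8%, 9.58% and 13.3% in the 7.5 min libraries, and 19.8%, 17.1% and 23.4% in those of 15 min. After 30 min of labelling it was 41.6%, 29.2% and 29.4%. The later libraries had 23.7%, 26.9% and 23.1% (45 min) and 17.2%, 19.5% and 17.5% (60 min). In total RNA it was 0.477%, 0.480% and 0.878%. Each of the 12 libraries from 15 to 60 min was above the 3 libraries at 7.5 min.

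The ratio of TUBG1 was higher at 30 than at 7.5 min, with a log2 change of 1.81 (SE 0.28, adjusted p = 0.00136 by limma), a comparison added after its values were seen. Of all genes, 26.3% were called, 3.21% higher and 23% lower, and the median was -0.68. No other member was called, and their log2 changes lay between -0.47 (TUBB3) and 0.69 (TUBA1A). The call of TUBG1 held in all 11 alternatives (adjusted p 0.000592 to 0.0104). At 60 against 7.5 min its log2 change was 0.64 (SE 0.28, adjusted p = 0.0615), which did not pass, and without 7.5 min library A it did (0.78, adjusted p = 0.0478).

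**Figure D3:**
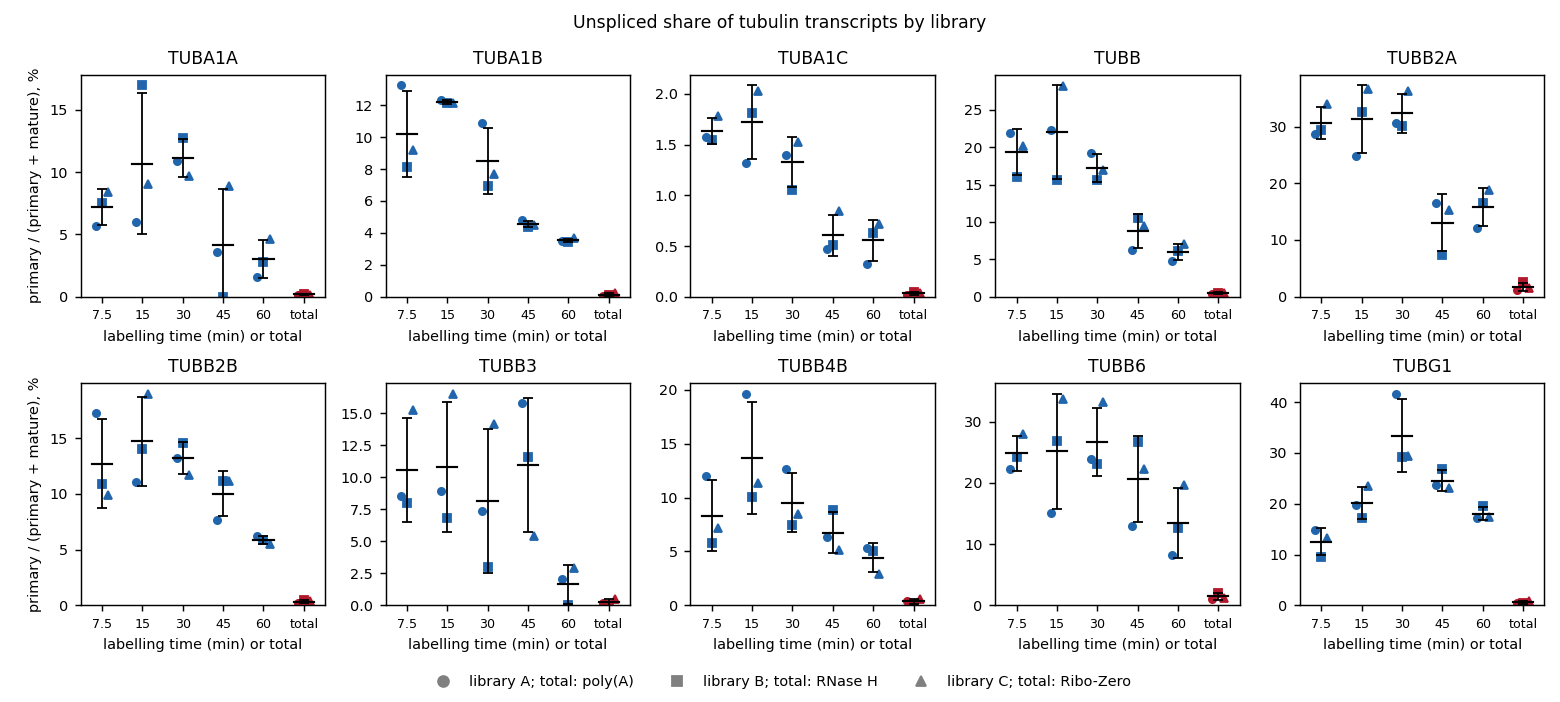
Unspliced share, primary as a percent of primary plus mature TPM (y axis, from 0, each panel with its own scale), by labelling time in min and in total RNA (x axis). Points are single libraries, with mean and ± SD (n = 3). The share of TUBG1 peaks at 30 min (33.4%) and that of TUBA1B has a mean of 10.2% after 7.5 min and of 3.54% after 60 min.

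The primary level of TUBG1 was 18.1, 9.42 and 13.9 TPM in the 7.5 min libraries. It was 29.1, 18.8 and 18.7 TPM after 30 min of labelling, above every 7.5 min library, and 16.9, 13.2 and 13.5 TPM in the 60 min libraries, which overlap the first. Its log2 change at 60 min was 0.10 (SE 0.26, adjusted p = 0.730 by limma), above 95.1% of all genes. Of the 9 members tested, 6 were lower: TUBA1A, TUBA1B, TUBA1C, TUBB, TUBB2B and TUBB6, with log2 changes from -1.45 (TUBA1B) to -0.74 (TUBB2B). TUBB3 was under the filter. Of 14497 genes, 75.6% were called, 75% lower and 0.635% higher.

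These primary levels are shares of a library in which unspliced RNA as a whole recedes, with a median log2 change of -1.15. With median-ratio scaling of the primary levels, which brings that median to 0.04 and the calls from 92 higher and 10874 lower to 3175 and 3154, no member was lower and TUBG1 (1.52, adjusted p = 0.0119 by limma) and TUBB6 (0.37, adjusted p = 0.00602) were higher. For TUBB6 the direction thus reverses with the scaling. It also reverses for TUBA1B, TUBB, TUBB2A, TUBB2B and TUBB4B, which were not called under that scaling. The call of TUBA1A was also lost without 7.5 min library A or C or 60 min library A or B (adjusted p = 0.0523, 0.0550, 0.0598 and 0.0635). That of TUBB2B was lost without 7.5 min library A (log2 change -0.34, adjusted p = 0.207) or 60 min library B or C (0.0958 and 0.0934), and TUBB2A (-0.77, adjusted p = 0.0541) passed without 7.5 min library B (0.0491).

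Introns give a second readout, from junction reads of the same labelled libraries. The authors deposited the excised share of an intron, from reads that cross the spliced junction against reads that cross its boundaries, as a mean over the 3 libraries of a time. It has no error of its own here. Their table had 21782 introns, of which 20 were of tubulin genes: 8 of TUBG1, 3 each of TUBA1B, TUBA1C and TUBB4B, 2 of TUBB6 and 1 of TUBB2B. Intron positions below are those of the authors' table (hg19).

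All 8 TUBG1 introns in the table were excised less at 30 than at 7.5 min, and all 8 less at 15 min too. At 15 min, 38.8% of all introns and 7 of the 12 α- and β-tubulin introns were lower. Averaged over the 8, the excised share was 73.9%, 63.1%, 47.0%, 64.2% and 68.7% at the 5 successive times. The median over all introns in the table was 54.2%, 57.9%, 69.6%, 80.6% and 84.4% at those times. Of all introns, 18.6% were lower at 30 than at 7.5 min. Of 922 genes with at least 8 introns in the table, every intron was lower at 30 min in 20 genes (2.17%).

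The widest drop was in the 83-base intron at chr17:40766431-40766513 (plus strand), which was excised at 76.4% after 7.5 min, 32.5% after 30 min and 66.3% after 60 min. The 261-base intron at chr17:40766017-40766277 went from 61.4% to 25.9% at 30 min, 23.3% at 45 min and 47.4% at 60 min, the lowest shares of any TUBG1 intron. The 573-base intron at chr17:40765092-40765664 changed least, from 82.6% to 71.7% and then 91.1%. It was the only TUBG1 intron with a higher share at 60 than at 7.5 min. At 60 min, 5.4% of all introns were below their 7.5 min share, against 7 of 8 in TUBG1 and 0 of 12 in the α- and β-tubulin genes.

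Several TUBG1 introns begin with a weak 5′ splice site. The MaxEnt score, which rates how well a site fits the splice-site consensus, was 4.22 at chr17:40761805-40762125, 4.81 at chr17:40765752-40765866, 5.52 at chr17:40766017-40766277 and 5.77 at chr17:40762239-40762440. These sites rank in the lowest 9.70% of all introns (median 8.76). The other 4 scored 8.95 to 11.1, and the last intron, at chr17:40766676-40766861, had a weak 3′ splice site instead (2.38, median of all introns 8.72). The 83-base intron that dropped most at 30 min had a 5′ score of 9.46. Whether the strength of splice sites bears on the drop was not tested. The 8 TUBG1 introns in the authors' table were short, 83 to 573 bases, against a median of 1424 bases over all introns. The transcript model of TUBG1 has 11 exons, so not all of its introns are among these.

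The introns of TUBA1B were the most completely excised of the members at 60 min. Those at chr12:49523506-49525080, chr12:49523174-49523282 and chr12:49522722-49523024 (minus strand) were excised at 82.8%, 83.6% and 81.0% at 7.5 min and at 92.8%, 95.2% and 94.8% at 60 min. The first of them is 1575 bases long. Their mean was 82.5%, 78.7%, 85.0%, 92.5% and 94.3% over the 5 times, with 2 of the 3 lower at 15 than at 7.5 min. The 3 introns of TUBA1C started lower, at 67.4%, 57.0% and 57.7%, and reached 92.0%, 81.9% and 84.8%.

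The β-tubulin introns were more mixed. The 3 introns of TUBB4B, on chromosome 9, averaged 70.3%, 58.6%, 62.7%, 76.8% and 81.4% over the 5 times, and each of them was lower at 15 and 30 than at 7.5 min, by at most 14.1 percentage points at 30 min. The 14013-base intron of TUBB6 at chr18:12311053-12325065 was excised at 50.3%, 28.97%, 39.3%, 66.1% and 60.1% over the 5 times, the lowest at 60 min outside TUBG1. At 30 min, 5 of the 12 α- and β-tubulin introns were below their 7.5 min share.

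**Figure D4:**
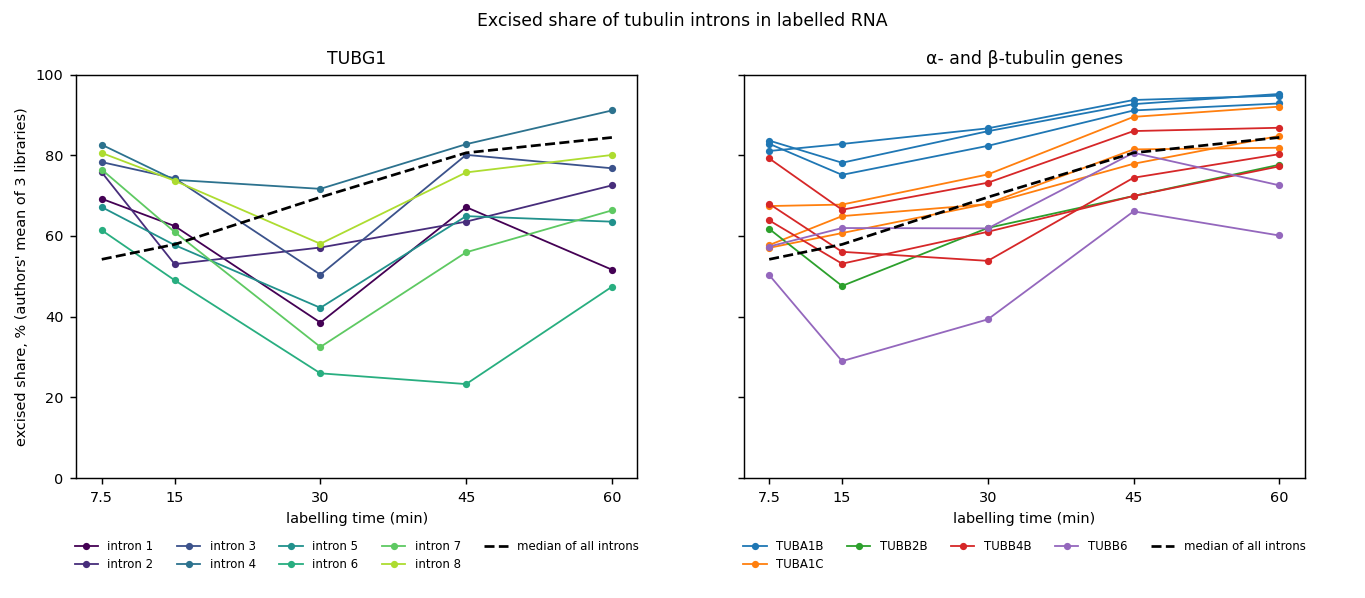
Excised share in percent (y axis, 0 to 100, the authors' mean of 3 libraries) of 8 TUBG1 introns (left) and 12 introns of 5 α- and β-tubulin genes (right) against labelling time in min (x axis), with the median of all introns dashed. All 8 TUBG1 introns lie lower at 30 than at 7.5 min, where the median of all introns is higher, and the TUBA1B introns end at 92.8% to 95.2%.

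Decay was read from the authors' rate table, fitted by them to the labelled libraries with INSPEcT, which holds centred log10 scores for 15120 genes and 8 of the 10 members, not TUBA1A or TUBB3. In the authors' deposited table the degradation scores were -0.759 for TUBA1B, -0.727 for TUBA1C, -0.712 for TUBB2B, -0.645 for TUBG1, -0.569 for TUBB2A, -0.567 for TUBB, -0.550 for TUBB6 and -0.541 for TUBB4B. All 8 were among the slowest 8.20% of genes. TUBG1, the member outside translation-coupled decay, lay within the range of the α- and β-tubulin genes, with 3 of them below it and 4 above. These scores carry no error in the table, so neighbours cannot be told apart by a test.

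**Figure D5:**
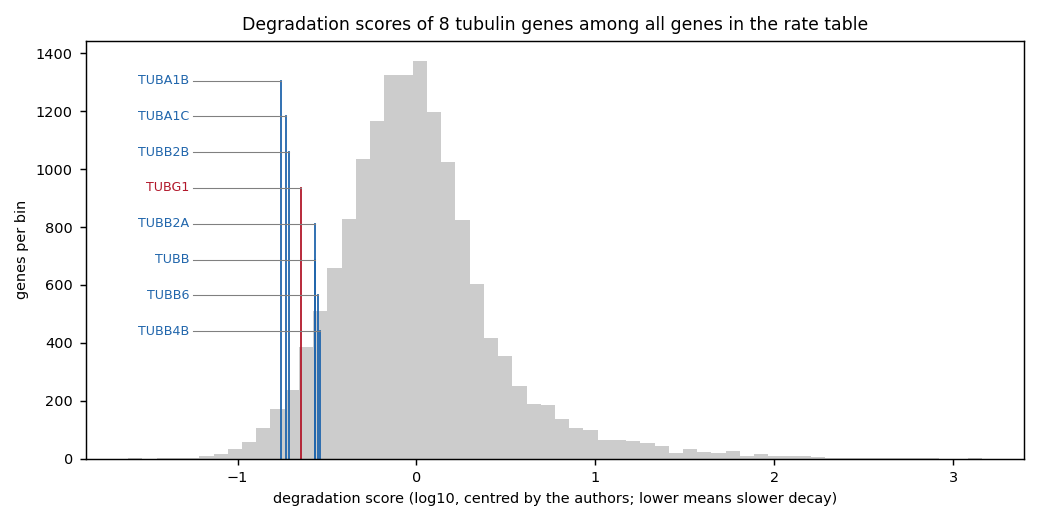
Histogram of the authors' degradation scores (x axis, log10, centred, lower for slower decay) as genes per bin (y axis), with lines at 8 tubulin genes, whose heights only separate the names. The 8 scores lie between -0.759 and -0.541, and TUBG1 (-0.645) falls among the α- and β-tubulin genes.

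In synthesis, the authors' deposited table put TUBA1B at 1.69 (above 99.7% of genes), TUBB4B at 1.27 (98.8%), TUBA1C at 1.14 (98.2%) and TUBG1 at 0.633 (88.0%), with TUBB2A the lowest at 0.313 (64.9%). Translation scores there, from ribosome profiling, ranked at or above the 98.0th percentile for TUBA1B (4.38), TUBB (4.36), TUBA1C (4.33), TUBB4B (3.95) and TUBB2B (3.485), and were lower for TUBG1 (2.32), TUBB6 (2.22) and TUBB2A (1.78). In processing order, TUBA1C (above 99.9% of genes) and TUBA1B (98.9%) led, TUBG1 stood at 72.9%, and TUBB6 (34.6%) and TUBB2A (27.9%) were last. The excised shares of introns gave another order. At 7.5 min they averaged 60.7% in TUBA1C, below TUBA1B (82.5%) and TUBG1 (73.9%). Why the orders differ was not tested. The authors' clusters put 7 of the 8 in cluster c1, which holds 13.7% of genes, and TUBB2A in c2.

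The recognition machinery of tubulin autoregulation was itself followed in the labelled RNA. SCAPER, the adaptor between TTC5 and CCR4-NOT, was lower at 60 than at 7.5 min, at 55.2, 75.7 and 81.2 TPM against 18.1, 36.3 and 40.7 TPM (log2 change -1.19, SE 0.39, adjusted p = 0.0442 by limma). TTC5, which reads the nascent chain, was at 34.1, 21.1 and 23.1 TPM against 14.4, 19.5 and 30.0 TPM and did not pass (log2 change -0.31, adjusted p = 0.588). CCR4-NOT subunits were mostly higher. Of the 13 genes of this list, 7 were higher and 1 lower, led by CNOT9 (1.84) and the deadenylase CNOT8 (1.15), and the median was 0.71. With median-ratio scaling 2 stayed higher, CNOT9 (1.51) and CNOT8 (0.81), with SCAPER lower. Of all genes, 15.8% were higher in the same comparison.

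Factors that fold new tubulin moved in both directions. TBCA, which binds β-tubulin, was lower at 60 min by limma (log2 change -1.98, adjusted p = 0.000556), as was the prefoldin subunit PFDN5 (-1.05, adjusted p = 0.00330), while TBCC, a late-acting folding cofactor, was higher (1.63, adjusted p = 0.000434). In all, 1 of 11 was higher and 3 were lower, with a median of -0.36, against 15.8% higher, 4.21% lower and a median of 0.24 over all genes. The γ-tubulin ring complex, to which TUBG1 belongs, had 2 of 11 higher and 2 lower: MZT2B (-2.27) and MZT2A (-1.47) against MZT1 (1.52) and NEDD1 (1.01), with a median of 0.06. With median-ratio scaling, quantile normalization or mature transcripts alone, MZT1 was the 1 gene of the list still higher. MZT2A and MZT2B were also lower at 30 min, where 2.84% of all genes were. Of 19 regulators of microtubules or tubulin, 2 were higher, CKAP5 (1.04) and KIF2C (1.01), beside 15.8% of all genes. A list of 19 is too small to set its share apart from that one. With median-ratio scaling neither passed and 2 others of the list were lower, where 1296 of all genes were higher and 1307 lower. Without that scaling, their list had a median of 0.36, against 0.24 over all genes. Of 5 other tubulin genes tested, none was called by limma at 60 min (2 had an unadjusted p under 0.05, TUBG2 and TUBD1), and 7 further ones were under the filter.

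The genes most like TUBA1B over the 15 labelled libraries, among 9560 genes with a mean of at least 10 TPM, were MARCKSL1 (Pearson r = 0.974), RBM42 (0.953) and SF3B4 (0.952). For TUBB they were CDC20 (0.960), KCTD5 (0.952) and SLC1A5 (0.951), and for TUBG1 they were UBB (0.897), GAPDH (0.893) and VIM (0.879). Among the members, TUBG1 was most like TUBA1A (0.616) and TUBA1B (0.597). These correlations share libraries, times and library letters and are given as a description.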

How the data were processed

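The authors deposited TPM per gene for mature and primary transcripts. Transcripts were those of GENCODE release 19, per the file headers, to which the authors added 1 unspliced isoform per locus as the primary transcript. Bowtie 1.0.1, RSEM 1.2.11 and hg19 are named in the submitters' processing notes. Other deposited values were excised fractions of introns (bam2ssj, more than 5 reads in all 3 replicates), MaxEnt scores, log10 intron lengths, rate scores (INSPEcT) and copies per cell, used here as a signal scaled by the authors with spike-ins.

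Names came from GENCODE release 29 (82.1% of identifiers matched). Levels were tested as log2(TPM + 1) with limma 3.58.1 (trend, R 4.3.3), after a filter at a mean of 1 TPM over the libraries fitted, with Benjamini-Hochberg adjustment over all genes and a threshold of 0.05. Labelled contrasts used all 15 labelled libraries. Ratios used a pseudocount of 0.1 and a primary filter of 0.1 TPM. The fit was tested on simulated data. Alternatives were other pseudocounts, filters and scalings, a replicate block, fits of the 2 groups alone and leaving out each library; the TUBB sum and the ratio at 30 min were added after values were seen. Named genes were the 10 members, up to 3 called genes per list, TTC5, SCAPER and TUBG2. NEDD1 and TUBD1 were named after their values were seen. Members and lists were chosen with earlier results of these data known.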

Additional observations from a re-analysis of the deposited data

How the results depend on the processing

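TPM values carry no read depth, so counting error is unknown, and 3 libraries per group limit every test. At 30 against 7.5 min, the lower mature level and the higher primary to mature ratio of TUBG1 kept their call in every alternative run, as did the higher TUBA1A level in total RNA. Of the alternatives for counts of genes, 259 of 315 stayed within 1.5 times of the reported count. Of those for single genes, 444 of 556 kept direction and side of the threshold. Where values moved, the cause was not tested.

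At 60 against 7.5 min (mature), 2 members instead of 1 were higher with a pseudocount of 0.1, with a filter at 5 TPM or with TUBB summed over its equal entries, and 0 with no filter, median-ratio scaling, quantile normalization or TPM over mature transcripts alone. The lower count was 1 with median-ratio scaling and with mature transcripts alone, and the higher count 0 to 1 without single libraries. With median-ratio scaling, the log2 change was -0.22 for TUBA1B, -0.31 for TUBA1C, -0.086 for TUBB2B and -0.29 for TUBB6. With quantile normalization it was -0.080 for TUBA1C, -0.054 for TUBB2B and -0.21 for TUBB6. With mature transcripts alone it was -0.12 for TUBA1B, -0.20 for TUBA1C and -0.18 for TUBB6. Without single libraries it ran from -0.44 to 0.058 for TUBA1A, -0.047 to 0.27 for TUBA1B, -0.17 to 0.28 for TUBA1C and -0.067 to 0.20 for TUBB6.

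At 15 min, 8 genes were called over all, 23 with no filter, 4 with median-ratio scaling, 2 in a fit of the 2 groups alone and 2 to 14 without single libraries. At 30 min, 877 to 1140 of 1430 were called without single libraries. At 45 min it was 1266 of 2864 in a fit of the 2 groups alone and 1897 to 2592 without single libraries, and the count of lower members was 0 with no filter and with the 2 groups alone, and 0 to 1 without single libraries. Splits of calls at 30 and 45 min went from 954 higher and 476 lower to 517 and 630, and from 2066 and 798 to 1015 and 1258, with median-ratio scaling.

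In total RNA against 60 min, 4787 of 7522 genes were called with quantile normalization. The count of higher members was 10 with median-ratio scaling, 4 with quantile normalization and 1 to 4 without single libraries, and the lower count 0 to 1. TUBB had -0.048 with mature transcripts alone and -0.22 to 0.38 without single libraries, and TUBB4B had 0.74 with median-ratio scaling.

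For primary transcripts, 6329 (median-ratio scaling) and 6376 (quantile normalization) of 10966 genes were called, with 2 members higher and 0 lower in both. The log2 changes under these were 0.042 (median-ratio scaling only) for TUBA1B, 0.13 and 0.054 for TUBB, 0.60 and 0.49 for TUBB2A, 0.47 and 0.33 for TUBB2B, 1.11 and 0.90 for TUBB4B, and 0.37 and 0.33 for TUBB6. Without single libraries it ran from -0.65 to 0.062 for TUBB4B and from -0.13 to 0.31 for TUBG1. In the primary to mature ratio, 0 to 1 members were higher at 60 min without single libraries, and 1940 to 2748 of 3644 genes were called at 30 min.

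The titles give all labelled libraries the same replicate tag and set those of a time apart by the letters A, B and C. Nothing is said on pairing. Deviations of same-lettered libraries correlated at -0.013 to 0.34, over 0.1 in 18 of 30 pairs. Those of other letters were over 0.1 in 4 of 60. As a hint from the data, 13 of 15 libraries correlated best with their own letter. The replicate block took the letters as blocks. With the replicate block, the comparisons with 7.5 min called 231 (15 min), 2611 (30 min), 4231 (45 min) and 4759 genes (60 min). TUBB (adjusted p = 0.00718 by limma) and TUBG1 (0.0456) then passed at 60 min, for 2 members higher and 1 lower, and 1 member was higher at 45 min. No paired fit of total RNA was made.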
